A study of Homo sapiens with 10 samples.

Results

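Vimentin and the transcription factors that drive the epithelial-mesenchymal transition (EMT) were described here as a group of 7 genes, listed by name: VIM, ZEB1, ZEB2, SNAI1, SNAI2, TWIST1 and TWIST2, out of 61533 genes counted. RNA was sequenced from T24, an established line of human bladder cancer cells (5 libraries), and from its cisplatin-resistant derivative T24R2 (5 libraries), which was obtained by serial exposure of T24 to cisplatin. All cells were harvested on day 3 of culture, and the series was made to compare sensitive with resistant cells. The labels list 1 medium without drug for both lines, whereas the methods describe T24R2 as kept in medium with cisplatin, so the line and ongoing exposure to the drug cannot be told apart. Each line is 1 culture history, and nothing in the sources says that the replicates of a line came from separate cultures, so p-values measure only the spread between these libraries.

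EMT is a programme in which epithelial cells lose their junctions and polarity and take on features of mesenchymal cells. The SNAIL (SNAI1, SNAI2) and ZEB (ZEB1, ZEB2) zinc finger proteins bind E-boxes in promoters such as that of CDH1, the gene for E-cadherin, and recruit corepressors there. The TWIST proteins are basic helix-loop-helix factors that bind E-boxes as dimers with E-proteins. Vimentin is the intermediate filament protein of mesenchymal cells and a common marker of the mesenchymal state, whereas keratins form the filaments of epithelial cells. The miR-200 family and miR-205 repress ZEB1 and ZEB2, and the ZEB proteins repress miR-200 genes in turn.

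The recognition sequences of that loop are shown first because most matches to them among the members lie in the ZEB transcripts. The mature microRNAs are from RefSeq (GRCh38.p14), with the seed (bases 2 to 8) in capitals. miR-200b-3p, miR-200c-3p and miR-429 share 1 seed, miR-200a-3p and miR-141-3p share another, and miR-205-5p has its own.
hsa-miR-200b-3p: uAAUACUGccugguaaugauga
hsa-miR-200c-3p: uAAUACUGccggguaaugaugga
hsa-miR-429: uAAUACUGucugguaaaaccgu
hsa-miR-200a-3p: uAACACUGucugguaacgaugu
hsa-miR-141-3p: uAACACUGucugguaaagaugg
hsa-miR-205-5p: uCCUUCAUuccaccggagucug

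Matches to these seeds were searched on the sense strand of the 3′ untranslated regions (3′UTRs) of the MANE transcripts of GENCODE release 44 (hg38). The 3′UTR of ZEB1 (2540 bases, exon 9) held 6 matches to the seed of miR-200b, miR-200c and miR-429, 3 to that of miR-200a and miR-141 and 1 to that of miR-205. The 3′UTR of ZEB2 (5370 bases, exon 10) held 5, 4 and 0. SNAI2 held 1 match, to the seed of miR-200b, miR-200c and miR-429, and VIM, SNAI1, TWIST1 and TWIST2 held 0 of any kind. Among 19061 3′UTRs, 16.1% held at least 1 match to the first seed, 18.2% to the second and 11.4% to that of miR-205, whereas 2 had 6 or more matches to the first seed (0.0105%) and 8 had 5 or more (0.042%). These counts do not allow for the length of the 3′UTR. A match is a description of the letters and not a measured site. Mature microRNAs were not measured in these libraries. The 6 matches of ZEB1 and the 5 of ZEB2 to the first seed are printed with the match in capitals, 5′ to 3′ on the strand of the gene.
ZEB1, chr10:31527622-31527650, plus strand: ttttatcttatCAGTATTatcactcttat
ZEB1, chr10:31527716-31527744, plus strand: taaatccgcttCAGTATTttattatgttt
ZEB1, chr10:31528145-31528173, plus strand: gtgccatttctCAGTATTttcaaggctct
ZEB1, chr10:31528496-31528524, plus strand: tttttacctatCAGTATTattttatttct
ZEB1, chr10:31528566-31528594, plus strand: ttcaaacctggCAGTATTaatacccttct
ZEB1, chr10:31529217-31529245, plus strand: ttcatcattatCAGTATTttctttggaaa
ZEB2, chr2:144389042-144389070, minus strand: ctaccatacatCAGTATTtttattattat
ZEB2, chr2:144388979-144389007, minus strand: ctacaatgcatCAGTATTatgattcctct
ZEB2, chr2:144388621-144388649, minus strand: agcacccatgtCAGTATTagaagaatagg
ZEB2, chr2:144388536-144388564, minus strand: attaattttgtCAGTATTacaccaaactg
ZEB2, chr2:144388405-144388433, minus strand: actgtagtgtaCAGTATTatagttcttca
The single miR-205 match of ZEB1 lies in the same 3′UTR.
ZEB1, chr10:31528071-31528099, plus strand: tgtggtaacatATGAAGGatatgacatga

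The promoter of VIM, the member with the largest rise, is printed as the 250 bases before the start of its MANE transcript (RefSeq, GRCh38.p14). Capitals mark the motifs searched on both strands: the E-box CACCTG bound by SNAIL and ZEB proteins, the AP-1 motif TGANTCA and the GC box GGGCGG. The window held 1 GC box, at position -46 from the start, and neither of the other motifs.
VIM, chr10:17227991-17228240, plus strand: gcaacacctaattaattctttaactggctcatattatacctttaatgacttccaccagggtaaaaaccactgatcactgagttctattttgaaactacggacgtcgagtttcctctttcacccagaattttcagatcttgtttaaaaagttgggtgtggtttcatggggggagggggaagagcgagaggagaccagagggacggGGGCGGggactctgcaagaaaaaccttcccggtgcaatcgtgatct
Of 35116 promoter windows of this length, 17.5% held the E-box, 6.57% the AP-1 motif and 42.6% the GC box. The window of ZEB1, at 1 of its 7 RefSeq starts, held E-boxes at positions -242 and -85 and a GC box at position -177. The window of ZEB2 held none of the motifs and that of TWIST2 held 4 GC boxes. A motif match is a description of the letters. Entries for 4 of the 7 members were matched, those of VIM, ZEB1, ZEB2 and TWIST2.

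Total counts were 9257843 to 10840954 per library (median 10107648). Levels are given as CPM, the counts of a gene per 1000000 counts of the TMM-scaled library size of edgeR. T24R2 was compared with T24 by edgeR's quasi-likelihood test over the 16181 genes that passed its default filter, and a gene was called at an adjusted p (Benjamini-Hochberg) under 0.05 with a log2 fold change beyond 0.5 in either direction. By this rule 8309 genes were called (51.4%), with 24.9% of all tested genes higher and 26.5% lower in T24R2. Of the 7 members, 5 passed the filter and 4 were called, 3 higher (VIM, ZEB2, SNAI2) and 1 lower (SNAI1), a share to be read against these high background shares. The median log2 fold change of all tested genes was 0.01, and it was 0.18 without scaling beyond library size.

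VIM (ENSG00000026025.16, chromosome 10 of hg38, 17228241 to 17237593, plus strand) was the most abundant member in both lines. Its CPM was 490, 497, 487, 461 and 475 in T24 replicates 1 to 5. In T24R2 replicates 1 to 5 it was 3887, 3793, 4306, 3909 and 3918. Every T24R2 library was above every T24 library, and T24R2 replicate 3 was the highest. The means were 482 ± 14.3 and 3963 ± 198 CPM (SD, n = 5 each), an 8.22-fold rise. On the log2 scale the change was 3.04 with a standard error of 0.04 (edgeR, adjusted p = 2.4e-39). An exact two-sided permutation test of the CPM gave p = 0.00794, which is the lowest this design can give. In the order of all 16181 fold changes, 326 genes rose more. VIM went from 0.0454% ± 0.00113 to 0.418% ± 0.0169 of all counts (SD, n = 5 each), and it moved from between rank 290 and 316 of all genes by count to rank 9 or 10.

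**Figure D1:**
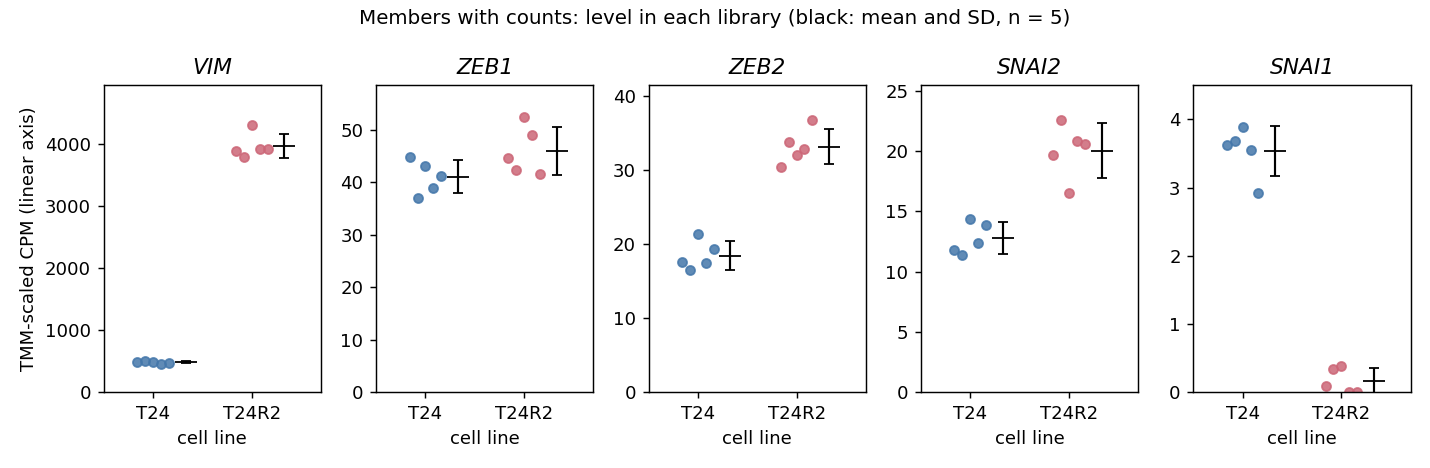
TMM-scaled CPM (linear axes from 0) of the 5 members with counts, in 5 T24 (blue) and 5 T24R2 (red) libraries; points are libraries, and the black mark is the mean with its SD. VIM, ZEB2 and SNAI2 were higher in every T24R2 library, SNAI1 was lower in every T24R2 library (at most 0.384 CPM), and the ranges of ZEB1 overlapped.

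The counts of VIM also depend on strand, since 24.6% of its exon bases are also exon bases of a gene on the opposite strand. VIM-AS1 (ENSG00000229124.8) shares 656 bases with VIM, mostly at exon 2 of its MANE transcript, and ENSG00000234961 shares 619 bases at exons 4, 5 and 6. VIM-AS1 rose from 194 ± 12.2 to 1472 ± 97.3 CPM (SD, n = 5 each), by 2.92 on the log2 scale with a standard error of 0.05 (edgeR, adjusted p = 1.1e-36). ENSG00000234961 rose from 156 ± 8.54 to 1335 ± 146 CPM, by 3.09 with a standard error of 0.06 (edgeR, adjusted p = 1.1e-35). Both kept a narrow ratio to VIM, 0.383 to 0.422 in T24 and 0.359 to 0.393 in T24R2 for VIM-AS1, and 0.304 to 0.341 and 0.313 to 0.367 for ENSG00000234961. Counting used strand option 1, and the kit is not described as strand-specific, so reads of VIM and of these genes cannot be told apart where they overlap. With every count of both taken off, 1185 to 1292 counts were left to VIM in T24 and 11595 to 13712 in T24R2, and its log2 ratio was 3.13.

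**Figure D2:**
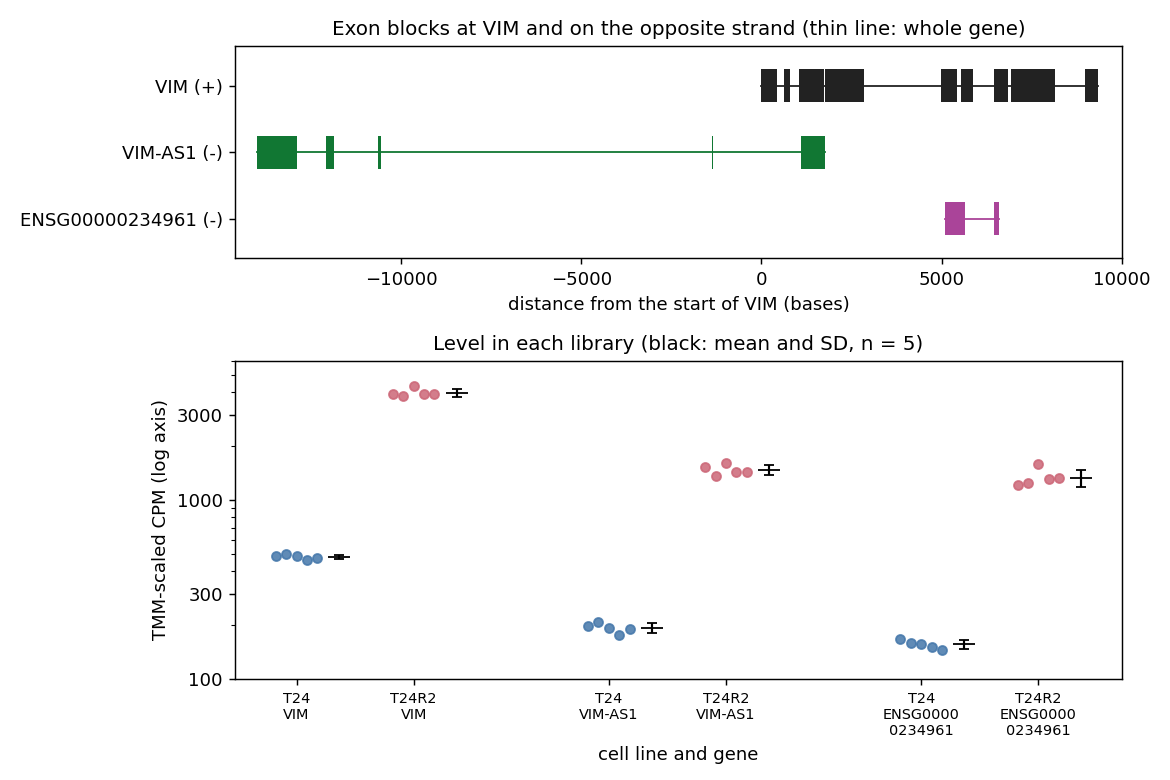
Top, exon blocks of VIM and of the genes on the opposite strand that share exon bases with it, by distance in bases from the start of VIM (+ and - are the strands); bottom, TMM-scaled CPM (log axis) in each library of T24 (blue) and T24R2 (red), with the mean and SD in black. All 3 genes were higher in every T24R2 library, with log2 fold changes of 3.04, 2.92 and 3.09.

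Vimentin was then set beside the keratins, an addition made after their values were seen. Per length, VIM rose from 93.1 ± 2.76 to 766 ± 38.3 RPKM (CPM per kilobase of exon; SD, n = 5 each). The summed RPKM of KRT7, KRT8, KRT18 and KRT19, keratins of simple and bladder epithelium, went the other way, from 1261 ± 60.7 to 714 ± 21.3. VIM made up 6.88% ± 0.144 of the sum of all 5 genes in T24 (6.63% to 6.99%) and 51.7% ± 1.2 in T24R2 (50.2% to 53.5%). The shares of the lines did not overlap. This ratio within a library does not depend on scaling, but the size of the shares depends on the exon lengths used.

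**Figure D3:**
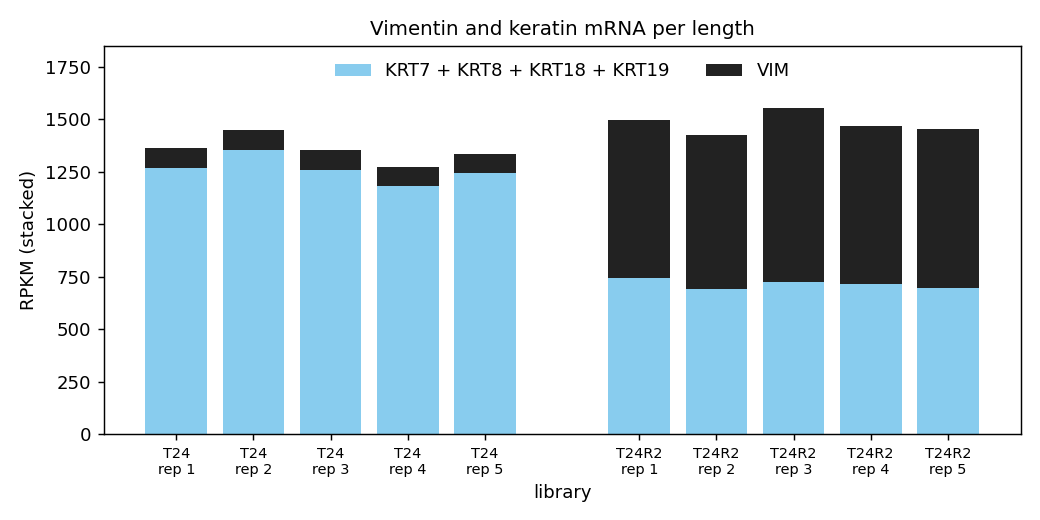
Stacked RPKM of VIM (black) and of KRT7, KRT8, KRT18 and KRT19 together (light blue) in each library. The keratin part fell from between 1183 and 1352 RPKM in T24 to between 691 and 744 in T24R2, while the VIM part rose from between 89 and 96 to between 733 and 832.

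ZEB1 (ENSG00000148516.23, chromosome 10, 31318495 to 31529814, plus strand) changed least among the members tested. Its CPM was 44.9, 37.1, 43.2, 38.9 and 41.2 in T24 replicates 1 to 5. In T24R2 replicates 1 to 5 it was 44.7, 42.3, 52.5, 49 and 41.7. The ranges overlapped, and 3 of 5 T24R2 libraries lay within the range of T24. The change was 0.16 on the log2 scale (SE 0.07, edgeR adjusted p = 0.0396), under the fold change minimum, and the exact two-sided permutation test gave p = 0.0952. An adjusted p under 0.05 with no fold minimum was reached by 75.5% of all tested genes and by 5 of the 5 members tested, but for ZEB1 this depended on the fit. Its adjusted p was 0.0585 with DESeq2, 0.0544 without a count filter and 0.0913 with opposite-strand counts taken off (edgeR). It was 0.0651 to 0.133 by edgeR without T24 replicate 2, 4 or 5 or T24R2 replicate 3 or 4. ZEB1-AS1, a gene on the opposite strand that shares 396 bases with ZEB1, was not called (log2 fold change 0.29 ± 0.16 standard error, edgeR adjusted p = 0.0987).

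ZEB2 (ENSG00000169554.23, chromosome 2, 144364364 to 144521057, minus strand), the second ZEB repressor, was higher in T24R2. Its CPM was 17.6, 16.5, 21.3, 17.4 and 19.4 in T24 replicates 1 to 5. In T24R2 replicates 1 to 5 it was 30.4, 33.8, 32, 32.8 and 36.7. The lines did not overlap, and the lowest T24R2 library stood well above the highest T24 library. The change was 0.84 on the log2 scale (SE 0.09, edgeR adjusted p = 2.5e-11; 1.8-fold), with an exact two-sided permutation p = 0.00794. ZEB2-AS1 shares 1299 bases with ZEB2 and had 15 counts in all T24 libraries together and 4 in all T24R2 libraries, and taking off the counts of all overlapping genes gave a log2 ratio of 0.87.

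SNAI2 (ENSG00000019549.13, chromosome 8, 48917598 to 48921740, minus strand), which encodes Slug, was also higher in T24R2. Its CPM was 11.8, 11.4, 14.4, 12.4 and 13.9 in T24 replicates 1 to 5. In T24R2 replicates 1 to 5 it was 19.7, 22.6, 16.5, 20.8 and 20.6. The lines did not overlap, with T24R2 replicate 3 the lowest of its line and nearest to T24. The change was 0.65 on the log2 scale (SE 0.11, edgeR adjusted p = 8.6e-07; 1.57-fold), with an exact two-sided permutation p = 0.00794.

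SNAI1 (ENSG00000124216.4, chromosome 20, 49982980 to 49988886, plus strand), which encodes Snail, was the member that fell. It had 35, 35, 34, 33 and 27 counts in T24 replicates 1 to 5 and 1, 4, 4, 0 and 0 counts in T24R2 replicates 1 to 5. The lines did not overlap, and SNAI1 was near the floor of detection in T24R2. On unscaled library sizes, 3 counts correspond to 0.277 to 0.324 CPM per library. The mean CPM was 3.53 ± 0.366 and 0.164 ± 0.188 (SD, n = 5 each). From 164 and 9 counts in all, the level in T24 was 21.3 times that in T24R2, with an exact 95% interval of 10.9 to 47.4 that covers counting error only. The fitted change was -4.31 on the log2 scale (SE 0.42, edgeR adjusted p = 8.0e-12), with an exact two-sided permutation p = 0.00794. SNAI1 passed the filter on low counts only through T24, and no gene shares its exon bases on the opposite strand. Without T24R2 replicate 3 the fitted value was -4.81.

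TWIST1 (ENSG00000122691.13, chromosome 7, 19020991 to 19117636) and TWIST2 (ENSG00000233608.4, chromosome 2, 238848032 to 238910534) had 0 counts in each of the 10 libraries. A count of 0 allows up to 0.277 to 0.324 CPM per library, on unscaled library sizes. No difference between the lines was detectable for these genes at this depth. The nearest tested genes beside TWIST1 were counted in both lines, HDAC9 at 7.44 ± 1.73 and 8.33 ± 1.96 CPM (SD, n = 5 each) and POLR1F at 29.5 ± 2.95 and 32.9 ± 2.89, and neither was called.

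Across the 5 members tested, the ranges of the lines did not overlap for 4, beside 61.2% of all tested genes. Levels of different members were compared per length, in RPKM over all exon bases of a gene. In T24 the order was VIM, ZEB1 (4.75 ± 0.363), SNAI2 (3.89 ± 0.404), SNAI1 (2.07 ± 0.215) and ZEB2 (0.706 ± 0.0723; SD, n = 5 each), with the TWIST genes at 0. ZEB1 and SNAI2 were neighbours whose ranges overlapped. In T24R2 it was VIM, SNAI2 (6.11 ± 0.684), ZEB1 (5.32 ± 0.534), ZEB2 (1.27 ± 0.09) and SNAI1 (0.0965 ± 0.11), again with overlap between SNAI2 and ZEB1. The order in each line was the same with the length of the MANE transcript, a choice added after the data were seen, though ZEB2 and SNAI1 then overlapped in T24. The RPKM sum of the 6 factors was 11.4 ± 0.719 in T24 and 12.8 ± 0.431 in T24R2. SNAI1 went from 18.2% ± 2.02 to 0.752% ± 0.855 of that sum, SNAI2 from 34.1% ± 2.28 to 47.7% ± 4.55 and ZEB2 from 6.17% ± 0.315 to 9.9% ± 0.746, while ZEB1 held 41.6% ± 1.86 and 41.6% ± 4.46 (SD, n = 5 each). The shares depend on the length used. With the MANE transcript ZEB2 went from 11.8% ± 0.518 to 17.3% ± 1.17, SNAI1 from 12.3% ± 1.47 to 0.469% ± 0.533, SNAI2 from 34.8% ± 2.05 to 44.5% ± 4.1 and ZEB1 from 41.1% ± 1.94 to 37.6% ± 4.21.

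**Figure D4:**
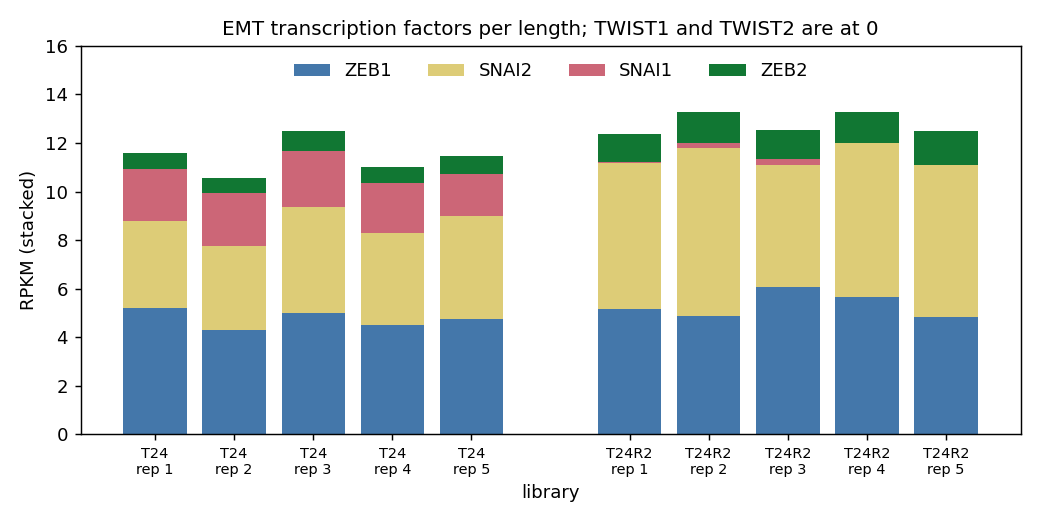
Stacked RPKM of ZEB1, SNAI2, SNAI1 and ZEB2 in each library; TWIST1 and TWIST2 were at 0 throughout. The total was 10.5 to 12.5 in T24 and 12.4 to 13.3 in T24R2, and the SNAI1 part, 1.71 to 2.28 in T24, was at most 0.225 in T24R2.

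Ratios between factors in the same library, which need no scaling, were chosen after the values were seen and are given as descriptions with no test. The log2 ratio of ZEB2 to ZEB1 counts was -1.16 ± 0.12 for T24 and -0.47 ± 0.21 for T24R2 (SD over 5 libraries), 0.68 apart, and the ranges did not overlap. That of SNAI2 to ZEB1 was -1.69 ± 0.15 in T24 and -1.20 ± 0.29 in T24R2, a difference of 0.49. The ranges of this ratio overlapped, with T24 at -1.93 to -1.56 and T24R2 at -1.67 to -0.90. SNAI1 made up 21.8% ± 2.77 of the counts of both SNAI genes in T24 and 0.849% ± 1.01 in T24R2.

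The genes that work with these factors were read from fixed lists, each described by its counts and its median, beside a median of 0.01 over all tested genes. The E-proteins are dimer partners of TWIST, and the ID proteins sequester E-proteins. Of 7 such genes 6 were tested, 1 was called higher and 2 lower, with a median log2 fold change of 0.18. TCF12, an E-protein, rose from 88.7 ± 1.62 to 137 ± 9.23 CPM (SD, n = 5 each; log2 fold change 0.63, adjusted p = 3.6e-14, edgeR). The inhibitors ID1 (log2 fold change -0.66) and ID3 (-1.61) fell, ID1 from 164 ± 9.7 to 104 ± 9.23 CPM and ID3 from 15.5 ± 2.99 to 5.09 ± 0.872. Without scaling beyond library size ID1 was at -0.50 and not called. TCF3, TCF4 and ID2 had log2 fold changes of 0.08, 0.28 and 0.36 and were not called, and ID4 had 0 counts.

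Of 8 corepressor genes recruited by SNAIL and ZEB proteins, all tested, 1 was called higher and 2 lower (median -0.03). SIN3A, a scaffold of histone deacetylase complexes, rose from 89.2 ± 5.32 to 196 ± 10.8 CPM (log2 fold change 1.13, adjusted p = 2.9e-22, edgeR). CTBP2, a corepressor bound by ZEB proteins, fell from 135 ± 5.04 to 52.2 ± 3.06 CPM (log2 fold change -1.37). KDM1A, the histone demethylase LSD1, was at -0.50, at the edge of the fold minimum. It was not called without scaling (-0.34), with upper-quartile scaling (-0.43), over a set of genes averaging 100 counts or more (-0.47), nor without T24 replicate 2 or T24R2 replicate 1, 2 or 4 (-0.49 to -0.48). Of 9 genes for kinases and ubiquitin ligase subunits that act on SNAI1 or TWIST1 protein, 4 were called lower and 0 higher (median -0.40). FBXL14, an F-box protein that targets SNAI1, fell from 14.1 ± 2.05 to 5.52 ± 0.757 CPM (log2 fold change -1.34), and LATS2, a kinase that phosphorylates SNAI1, fell from 48.6 ± 4.59 to 26 ± 3.56 (-0.90).

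Epithelial regulators that oppose the factors were only in part tested, since several were at or near 0 in both lines. Of 11 genes 5 were tested and 4 were called lower, with GRHL1 at 0.21 and not called (median -4.08, the same with genes at the floor set to their bound). MIR205HG, the host transcript of miR-205, had 45 to 84 counts per library in T24 (6.24 ± 1.6 CPM, SD, n = 5) and 0 counts in every T24R2 library, so it was at least 22.5-fold lower, taking 3 counts per library as the floor. ELF3, an epithelial transcription factor, was at 72.1 ± 10.2 CPM in T24 and had 2, 4, 3, 2 and 4 counts in T24R2 replicates 1 to 5, near the floor of 3 counts, so its fitted log2 fold change of -7.96 is imprecise. ESRP2, an epithelial splicing regulator, fell from 9.26 ± 1.04 to 0.544 ± 0.304 CPM (-4.08), and GRHL3 was at least 4.92-fold lower. MIR205HG, ELF3, ESRP2 and GRHL3 passed the filter on low counts only through T24, so the count called lower supports no direction of the list. MIR200CHG, host of miR-200c and miR-141, and GRHL2 had 0 counts in all 10 libraries, and OVOL1, OVOL2 and ELF5 had 3 counts or fewer and ESRP1 4 or fewer in each.

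Epithelial targets of repression moved less uniformly. Of 18 genes 11 were tested, 5 were called lower and 1 higher (median -0.49). CDH1, the best known target, was at or near 0 in both lines, at 0.0665 ± 0.101 CPM in T24 and 0 in T24R2. EPCAM, an epithelial adhesion molecule, was at least 16.1-fold lower in T24R2, and CLDN4, a tight junction protein, fell from 17.7 ± 1.9 to 1.19 ± 0.534 CPM (log2 fold change -3.89). MUC1, an apical mucin, rose from 0.969 ± 0.372 to 2.31 ± 0.556 CPM (1.24, adjusted p = 6.3e-04, edgeR). EPCAM and CLDN4 passed the filter on low counts only through T24, and MUC1 only through T24R2.

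Mesenchymal genes moved both ways. Of 21 genes 12 were tested, 3 were called higher and 7 lower (median -1.10). FN1, which encodes fibronectin, rose from 8065 ± 656 to 16390 ± 1214 CPM (log2 fold change 1.02, adjusted p = 4.7e-22, edgeR), and S100A4, a calcium-binding protein of motile cells, from 2.87 ± 0.559 to 5.83 ± 1.26 (1.02). PDGFRB, a growth factor receptor of pericytes and fibroblasts, had 0 counts in every T24R2 library and was at least 12.4-fold lower, and ACTA2, smooth muscle actin, fell from 5.25 ± 1.28 to 0.441 ± 0.281 CPM (-3.53). CDH2 was the other gene called higher, from 178 ± 4.22 to 318 ± 14.9 CPM. PDGFRB, ACTA2 and COL1A1 passed the filter on low counts only through T24, so the count called lower supports no direction of the list. The summed level of the list was 10517 to 12051 CPM in T24 and 17113 to 20305 in T24R2, most of it FN1. Of the 12 tested genes 0 had a rise as large as that of VIM.

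Other intermediate filament genes and the proteins that link filaments to the rest of the cytoskeleton numbered 12, of which 6 were tested, 2 were called higher and 1 lower (median 0.11). NES, which encodes nestin, a partner of vimentin in filaments, was at 3.6 ± 0.528 CPM in T24 and had 5, 1, 0, 0 and 3 counts in T24R2 replicates 1 to 5. It was called lower, but it passed the filter on low counts only through T24, and its fitted log2 fold change of -4.34 is imprecise. GFAP went from 1.44 ± 0.672 to 2.62 ± 0.882 CPM (0.85), with overlapping ranges, and passed the filter on low counts only through T24R2. GFAP was not called without T24 replicate 2 (0.68), T24 replicate 4 (0.71) or T24R2 replicate 5 (0.71). SYNM, which encodes synemin, another vimentin partner, rose from 6 ± 1.17 to 9.1 ± 0.837 CPM (0.60), and stood at 0.50, not called, without T24 replicate 3. PLEC, the linker plectin, was at -0.21 and not called.

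Of 13 other EMT transcription factors 10 were tested, 2 were called higher and 4 lower (median -0.31). KLF8, a zinc finger factor, had at most 3 counts per library in T24 and 19.5 ± 2.04 CPM in T24R2, at least 60.4-fold higher. KLF8 passed the filter on low counts only through T24R2, so its call supports no direction of the list. FOXC1 rose from 9.54 ± 1.92 to 20.2 ± 3.33 CPM (log2 fold change 1.08), while the related FOXC2 fell from 52.3 ± 3.64 to 7.6 ± 0.924 (-2.78). HMGA2, an architectural factor, fell from 195 ± 10.9 to 18 ± 1.3 CPM (-3.43, adjusted p = 5.0e-36, edgeR). PRRX1, PRRX2 and GSC had 0 counts in all libraries. Of 16 genes of the upstream signals, all tested, 3 were called higher and 3 lower (median 0.05). LEF1, a transcription factor of the Wnt pathway, rose from 1.44 ± 0.857 to 7.17 ± 1.87 CPM (2.31), and the ligand TGFB2 from 9.64 ± 2.22 to 17.3 ± 1.94 (0.85). LEF1 also passed the filter on low counts only through T24R2, so its call supports no direction of its list. JAG1, a Notch ligand, fell from 212 ± 17.7 to 58.1 ± 0.663 CPM (-1.86), and the ligand TGFB1 from 301 ± 8.04 to 152 ± 11.5 (-0.98).

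**Figure D5:**
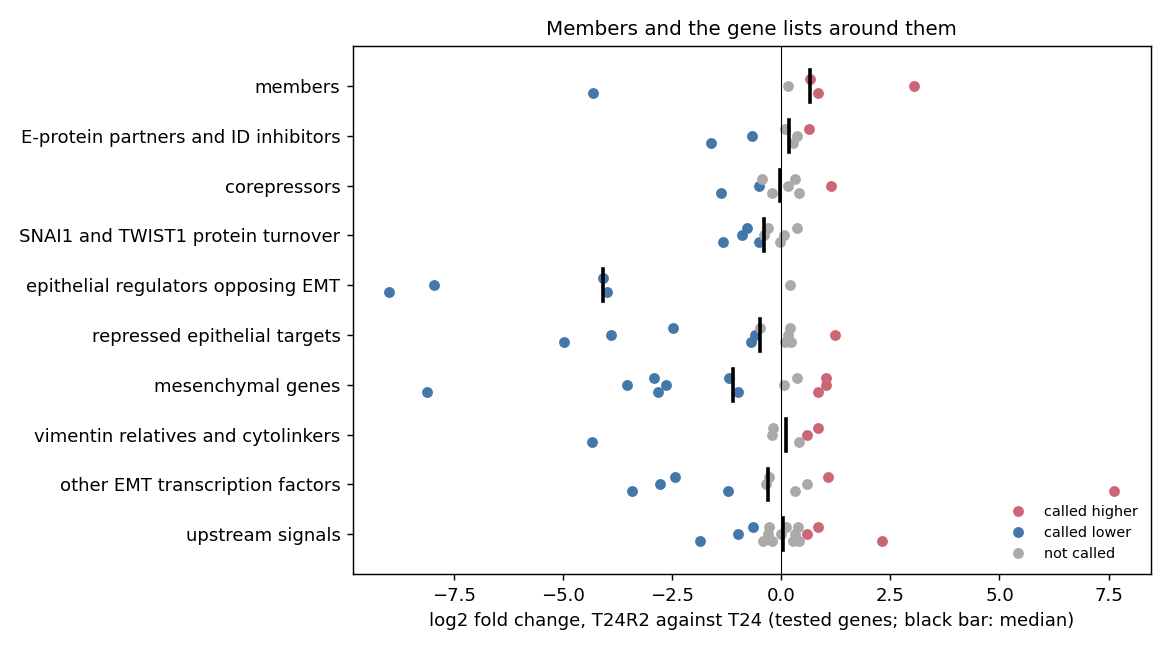
Log2 fold change (T24R2 against T24) of each tested gene of the members and of 9 lists around them; red points were called higher, blue points lower, grey points were not called, and black bars are medians. The tested epithelial regulators (median -4.08) and mesenchymal genes (median -1.10) lay mostly to the left of 0. Several genes of both lists passed the filter on low counts only through T24, so these positions support no direction of either list. Values of genes at the floor in 1 line are fitted, not bounds.

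Markers of cell types were read beside these values, in bulk RNA where fewer cells of a type and less RNA per cell cannot be told apart. Of 13 urothelial markers 7 were tested, and 7 of the 7 were called lower in T24R2, beside 26.5% of all tested genes. Their summed level was 4938 to 5671 CPM in T24 and 3012 to 3217 in T24R2. KRT7 was at 2242 ± 70.2 and 1370 ± 64.6 CPM, KRT19 was at least 964-fold lower in T24R2, and GATA3, a factor of luminal urothelium, had at most 5 counts per library in T24R2 and a fitted log2 fold change of -6.57. KRT19 and GATA3 passed the filter on low counts only through T24, so their calls support no direction of the list. KRT20 had 0 counts in both lines, and KRT5 was at 0 in T24. Markers of fibroblasts, cells rich in vimentin, summed to 9.61 to 11.9 CPM in T24 and to 0.954 to 2.29 in T24R2. Of these 8 genes COL1A2, COL3A1, DCN and LUM had 3 counts or fewer in every library. The sum came mostly from COL1A1 and PDGFRB, while PDGFRA went the other way, with 0 counts in T24 and 1 to 7 per library in T24R2. Blood cell markers summed to 0.432 to 2 CPM in T24 and 0.295 to 1.25 CPM in T24R2, and none passed the filter. CD14 went from 1.12 ± 0.531 to 0.0929 ± 0.0939 CPM, while PTPRC went the other way, from 0.0439 ± 0.0602 to 0.475 ± 0.316 (SD, n = 5 each). The other blood cell markers had 3 counts or fewer in every library. Endothelial markers summed to 225 to 278 CPM in T24, nearly all of it CDH5 (239 ± 22.3), and to 1.6 to 2.5 in T24R2, where PECAM1 (1.17 ± 0.313) stood above CDH5 (0.559 ± 0.31), with KDR at 3 counts or fewer in every library. The fibroblast, endothelial and urothelial sums were lower in the line in which VIM was higher, and their part in the result for VIM was not tested.

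Tested genes next to the members on both sides were read as well. Of these 14 neighbours 1 was called higher and 3 lower, beside 24.9% and 26.5% of all tested genes. The neighbours of VIM were TRDMT1 (log2 fold change -0.27, adjusted p = 0.067, edgeR) and HACD1 (0.17, adjusted p = 0.378), neither called. Beside SNAI1, UBE2V1 was called lower (-0.68) and RNF114 was not (-0.21). RPL29P19, a ribosomal protein pseudogene beside SNAI2 whose reads may come from related copies, was called lower (-0.51), and beside TWIST2 ASB1 was called lower (-0.57) and HDAC4 higher (1.12).

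The genes with the pattern most like that of VIM over the 10 libraries, by Pearson's r of log2(CPM + 1) among genes averaging 10 CPM or more (10669 for VIM), were ANK2 (0.9996), UNC5A (0.9996) and VIM-AS1 (0.9995). ANK2, a membrane adaptor, and UNC5A, a netrin receptor, were at or near 0 in T24 (at most 1 count per library) and were at least 105-fold and 282-fold higher in T24R2. VIM-AS1 shares exon bases with VIM. For SNAI1 they were CYBC1 (0.9961), PRSS3 (0.9959) and PIM3 (0.9958), with log2 fold changes of -0.99, -5.34 and -0.96. The 10 points share their cell line in groups of 5, and 361 genes had an r over 0.99 with VIM and 94 with SNAI1.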

How the data were processed

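The deposited tables hold raw fragment counts per gene, 1 table per library, for 5 T24 and 5 T24R2 libraries. Per the labels and the methods, the authors used STAR 2.7.0 for alignment (genome build hg38) and SAMtools 1.10 for filtering to unique alignments and removal of duplicates, and featureCounts 2.0.1 assigned fragments to genes of GENCODE 39 with strand option 1. Removal of duplicates may lower the counts of abundant transcripts such as VIM. No table holds pooled replicates or normalized values.

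Counts were compared in R 4.3.3 with edgeR 4.0.16 (filterByExpr, TMM, glmQLFit, glmQLFTest) and Benjamini-Hochberg adjustment over 16181 genes, with calls where the adjusted p was under 0.05 and the log2 fold change exceeded 0.5 in either direction. On simulated counts for these genes with 200 changed, the test found 187 and made 1 false call. The simulation changed far fewer genes than the 51.4% called in the data, so it does not test scaling or false calls in that setting. The biological coefficient of variation was 6.61%. Exon overlaps were computed with bedtools 2.31.1, and other steps with Python 3.11.15, SciPy 1.17.1 and pandas 2.3.3. Symbols were found for 61369 of 61533 genes. Sequences came from hg38 with GENCODE 44 and from RefSeq tables. Intervals and floors (3 counts) cover counting error only.

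The members and the gene lists were chosen with earlier results of these data known. Named genes were the 7 members, genes sharing exon bases with them on the opposite strand, the nearest tested genes, from each list the 2 called genes with the largest rise and the 2 with the largest fall among those averaging 1 CPM or more, the E-protein, ID and opposing epithelial genes, and the 3 genes most correlated with VIM and with SNAI1. CDH1, CDH2, PLEC, PRRX1, PRRX2, GSC, KRT5, KRT7, KRT8, KRT18, KRT20, KDR, COL1A2, COL3A1, DCN, LUM, PDGFRA, PTPRC and CD14 were named after their values were seen. Replicates of a line differed by more than sampling noise (ratios of chi-square to its degrees of freedom, 1.99 to 6.51), so each counted as a library. Mitochondrial genes took 2.35% to 2.97% of counts, and TMM factors were 0.936 to 0.951 in T24 and 1.04 to 1.07 in T24R2. The alternatives tried were no scaling, upper-quartile scaling, DESeq2 1.42.0 without and with shrinkage (apeglm 1.24.0), voom of limma 3.58.1, other count filters and thresholds, no mitochondrial genes, opposite-strand counts taken off, a block for the replicate number and leaving out each library.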

Additional observations from a re-analysis of the deposited data

Results flagged for a closer look

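VIM in T24R2 replicate 3 stood at 4306 CPM, apart from the other T24R2 libraries at 3793 to 3918, with 0.758 of the range of the line in the gap to the nearest of them. This was 1 extreme library in 18 groups examined, where chance gives about 0.9. The same library was the highest of its line for ZEB1 (52.5 CPM), VIM-AS1 (1611) and ENSG00000234961 (1582) and the lowest for SNAI2 (16.5), and it had the highest mitochondrial share of all libraries (2.97%). Their part in the VIM value was not tested. Without this library the log2 fold change of VIM was 3.01 by edgeR's quasi-likelihood test, and VIM was still called.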

How the results depend on the processing

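The count of members called stayed at 4 with either other scaling, with DESeq2, with voom, in each of the 10 fits without 1 library and with a block for the replicate number (8240 genes called under the block, which changed no call of a member). It was 2, VIM and SNAI1, with an absolute log2 fold change over 1, where 4211 genes were called in all. With a mean of at least 100 counts 4991 genes were called, and SNAI1 gave no value because it was not among the genes tested. Over their alternatives, log2 fold changes ran from 3.01 to 3.20 for VIM, 0.12 to 0.33 for ZEB1, 0.80 to 1.01 for ZEB2, 0.61 to 0.82 for SNAI2 and -4.81 to -3.53 for SNAI1. The highest values of VIM, ZEB1, ZEB2 and SNAI2 were those without scaling, where the median of all genes was 0.18 and 60.3% of called genes were higher, against 48.5% with TMM. The correlations of same-numbered libraries across the lines were -0.02 to 0.02, so the numbers do not pair them. Depth limits SNAI1 in T24R2 and both TWIST genes, which are at or near 0.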
